A study of Daphnia magna with 30 samples.

Results

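The 100 transcripts described here were those whose levels most closely followed a chitin deacetylase transcript, measured by probe DM03120P2, between individual adult females of the water flea Daphnia magna. They were chosen from the 14338 probes of a single-colour Agilent array by a rule on measured values. A level was the log2 signal of a probe minus the 75th percentile of its array, so a level of 0 is the brightness at that percentile, and the mean of the animal's own photoperiod was removed before the correlations were computed. Among the 8835 probes well above background on all 30 arrays, the 100 with the highest Pearson r with DM03120P2 were kept, leaving out any with a higher r with DM00375P2, a probe for vitellogenin fused with superoxide dismutase. That last step set aside 4730 probes, yet the same 100 were found without it. The r values and the movement of the 100 together are therefore how the set was made, and they are given as a description with no test.

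The animals were 21 days old and came from a culture founded by 1 individual. They had been held under days of 4, 8, 12, 16 or 20 h of light, written 4L:20D, 8L:16D and 12L:12D, 16L:8D for the control, and 20L:4D, after the hours of light and of dark. Each photoperiod had 3 chambers, called replicates 1 to 3, with 2 arrayed animals each, lettered A and B, so n = 6 animals per photoperiod, each a whole female with its brood on an array of its own. The chambers of a photoperiod shared a light-proof box, and every animal was collected soon after lights on, so day length cannot be told apart from the box or from the dark hours just before sampling. Since whole animals were used, fewer cells expressing a transcript and less of it per cell cannot be told apart. The arrays had 75th percentiles of 359 to 643 intensity units and 69.5 to 89.8% of probes well above background, the lowest of these percentages belonging to animal 3A of 16L:8D.

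Chitin deacetylases remove acetyl groups from chitin, the polysaccharide of the arthropod cuticle, and so alter how chitin fibres are packed. Daphnia sheds its cuticle repeatedly throughout adult life. An adult female releases its brood, moults and then lays the next clutch into the new brood pouch, so yolk provisioning and cuticle renewal run on a shared cycle. Vitellogenin is the precursor of the yolk protein laid down in the eggs. The labels did not give the moult stage of any animal.

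Few members were annotated, as was true of the array as a whole, and none had a cuticle name. Annotations were at hand for 958 probes (6.68% of the array), and 7 of the 100 members, a similar share, were among them. Of these, 3 were named proteins, 3 were uncharacterized proteins and 1 had no significant match, while the other 93 members were not annotated in the sources used here. No member carried a cuticle, chitin or moult keyword, so the members are called below by their probe names and as the transcripts varying with DM03120P2. The probe sequences that follow, in lower case from 5′ to 3′, identify the transcript used as the reference of the rule, the 3 members with a named protein and DM02137P1, the member with the smallest photoperiod p-value. None of the bases are capitalised because no motif was searched.
DM03120P2, putative chitin deacetylase: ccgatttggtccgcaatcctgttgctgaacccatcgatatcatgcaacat
DM07027P3, chymase: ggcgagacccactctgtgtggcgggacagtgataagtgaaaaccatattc
DM04463P1, putative cathepsin O: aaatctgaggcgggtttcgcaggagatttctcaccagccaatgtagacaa
DM04354P3, 60S ribosomal export protein NMD3: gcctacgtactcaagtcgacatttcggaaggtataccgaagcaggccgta
DM02137P1, uncharacterized protein: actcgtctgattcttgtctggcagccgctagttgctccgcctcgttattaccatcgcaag

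The chitin deacetylase transcript itself varied widely between animals. Under 4L:20D the lowest, median and highest levels of DM03120P2 were -0.69, 0.30 and 0.95, and under 8L:16D they were -0.90, 0.60 and 0.95. Under 12L:12D they were -3.70, -0.93 and 0.76, under 16L:8D -2.22, -1.15 and -0.59, and under 20L:4D -3.75, -1.18 and 1.34. The levels of the 12 animals on the shortest days lay together, whereas 12L:12D and 20L:4D held animals far below that range as well as animals within or above it. Over all 30 animals the highest signal was 34.0 times the lowest. Relative to 16L:8D the mean level was higher by 1.56 log2 units under 4L:20D and by 1.68 under 8L:16D (SE 0.72 each), and neither difference passed the test across all probes (limma, adjusted p = 0.56 and 0.324).

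**Figure D1:**
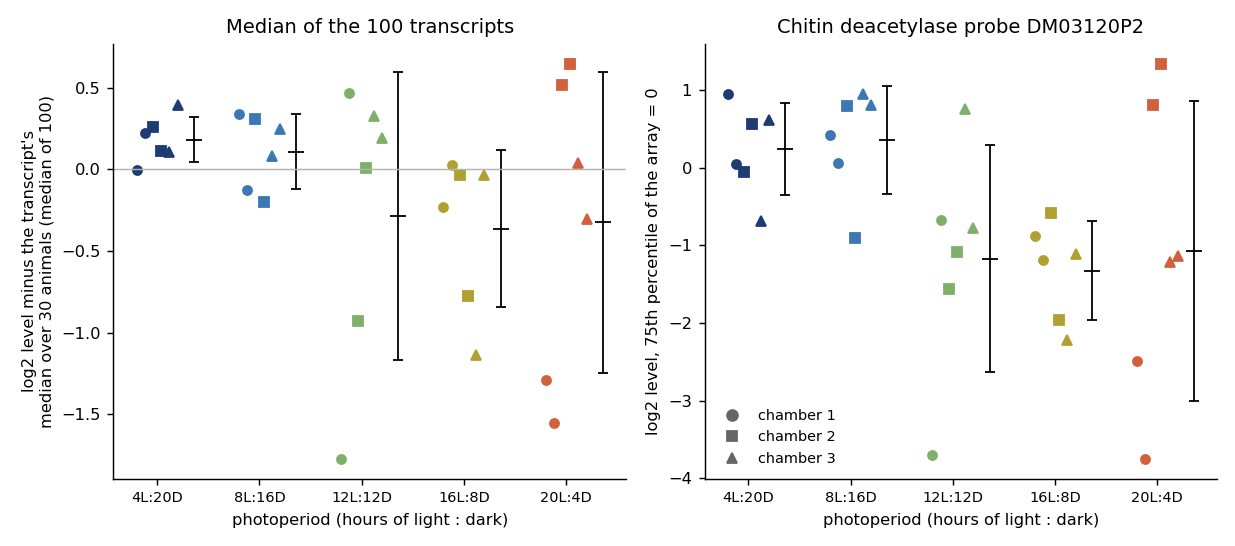
Left, the median over the 100 transcripts of each animal's log2 level minus the transcript's own median over 30 animals; right, the log2 level of DM03120P2. Points are single animals, their shapes the chamber, and bars are the mean and SD of 6 animals per photoperiod. The lowest median of the 100 transcripts was -0.20 among the animals of 4L:20D and 8L:16D and -1.77 among those of the other photoperiods.

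Correlation with DM03120P2 reached 0.877 for DM04079P2, and the median member had an r of 0.678. The last members taken were DM12080P1 and DM08473P2 (r = 0.6171 and 0.6170), and the first left outside were DM11517P2 and DM10440P3 (r = 0.6167 and 0.6166), so the limit of the set falls within a continuous range of values. The 8835 bright probes as a whole had a median r of -0.0012, with the middle of their distribution between -0.209 and 0.188. A larger number, 165 probes, varied oppositely at least as strongly as the members varied with DM03120P2. The members are the top of this ranked list over 30 animals.

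Low values of many members at once fell in particular animals. In 7 of the 30 animals, between 37 and 60 of the 100 members lay more than 1 log2 unit below their own median over all animals, and in the other 23 animals at most 16 members did so. These were animals 1A and 2A of 12L:12D, 1A, 2B and 3A of 16L:8D, and 1A and 1B of 20L:4D. There was none under 4L:20D or 8L:16D. The animals were singled out from the members' own values, so this is a description of where the lows lay. The animals' median member, taken relative to each member's own median, was graded from -1.77 upward, and the 7 were not its 7 lowest. Animal 1A of 16L:8D, with 37 members low, had a value of -0.23 and 27 members above their own median, while animal 3B of 20L:4D, with 16 members low, had a value of -0.31. Together the 7 animals held the lowest value of 96 of the 100 members.

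Few of the other bright probes were low in the same animals. The animals were singled out by the members' lows, so this contrast follows in part from that choice. A cut of 1 log2 unit is also reached more easily by members. Their median SD between animals was 0.82, against 0.34 for the bright probes. The shares are given as a description. In animal 1A of 12L:12D, 57 members but only 2.68% of the other bright probes were more than 1 log2 unit below their own median, and in animal 1B of 20L:4D the figures were 59 members and 2.95%. In animals 3A of 16L:8D and 1A of 20L:4D the share of other bright probes was 7.74% in each, beside 56 and 60 members. In animals 2A of 12L:12D and 1A and 2B of 16L:8D it was 1.82, 4.42 and 4.06%, beside 48, 37 and 47 members. Over the other 23 animals the share ran from 0.86% (1A of 8L:16D) to 8.06% (3B of 20L:4D), so 7.74% was near the top of that range. The 7 arrays had 75th percentiles of 360 to 578 and the other 23 of 359 to 643. They lay on 5 of the 9 slides and came from 6 chambers, with 1 chamber, replicate 1 of 20L:4D, giving 2 of them. The other extreme also ran by chamber in that photoperiod, where animals 2A and 2B of 20L:4D held the highest value of 14 and 18 members.

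**Figure D2:**
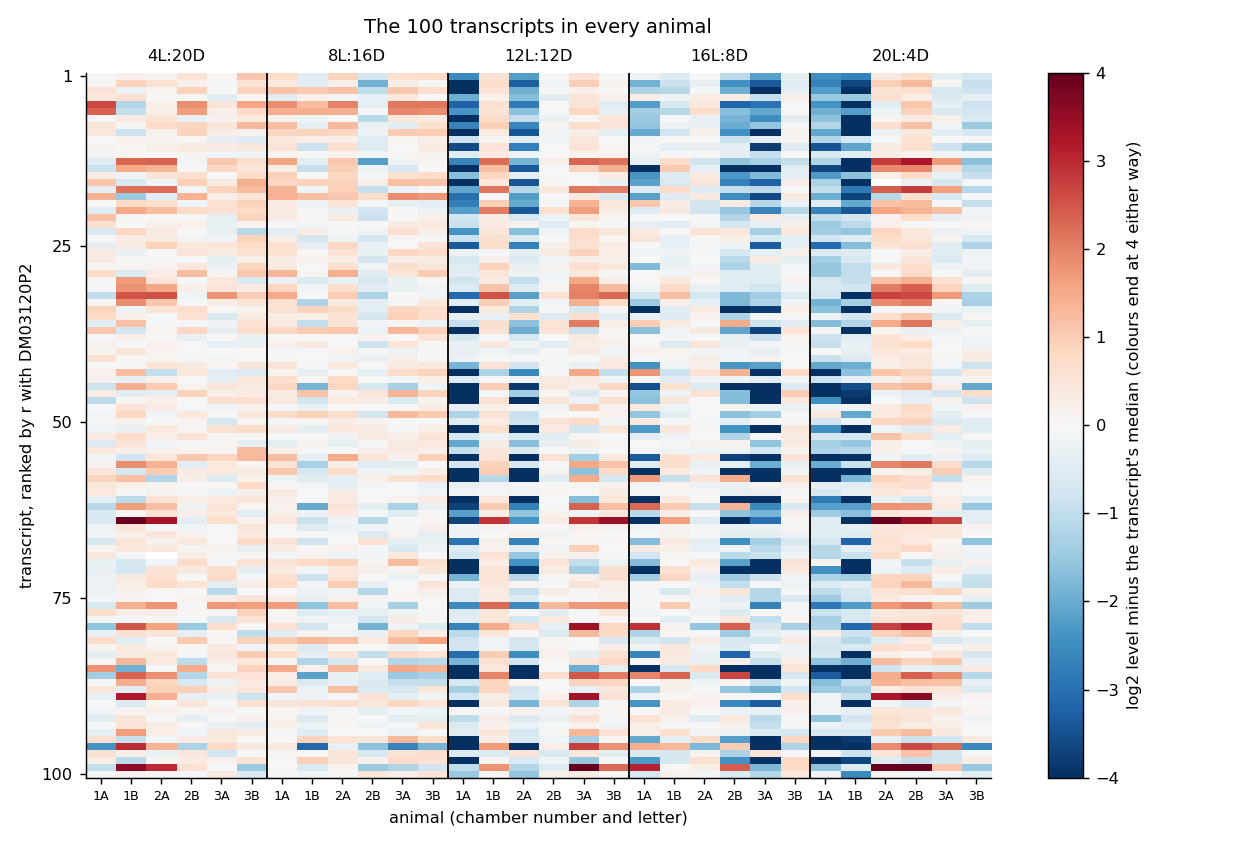
Log2 level minus the transcript's median over 30 animals for the 100 transcripts (rows, in order of r with DM03120P2) in the 30 animals (columns, by photoperiod and chamber), with blue below and red above the median. In 7 animals, none of them under 4L:20D or 8L:16D, 37 to 60 members lay more than 1 log2 unit below their median, while the number above it differed, with 27 in animal 1A of 16L:8D and 0 in animals 1A of 12L:12D and 1B of 20L:4D.

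The spread of the members was correspondingly uneven across photoperiods. The median SD of a member over 6 animals was 0.49 under 4L:20D and 0.45 under 8L:16D, beside 0.35 and 0.29 for all bright probes. It was 1.03 under 12L:12D, 0.79 under 16L:8D and 1.22 under 20L:4D, beside 0.28, 0.39 and 0.39 for all bright probes. The covariation used by the rule was also highest in the longer photoperiods. The median r of the members with DM03120P2 within a photoperiod was 0.014 under 4L:20D, 0.499 under 8L:16D, 0.820 under 12L:12D, 0.608 under 16L:8D and 0.866 under 20L:4D. Since the rule pooled all 30 animals, no difference in spread or in r between photoperiods was tested. With the 4 animals whose median member lay more than 1 log2 unit low left out (12L:12D 1A, 16L:8D 3A, 20L:4D 1A and 1B), the members' r over the other 26 animals had a median of 0.453 and ran from 0.006 to 0.820, as a description over animals that the rule also used.

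**Figure D3:**
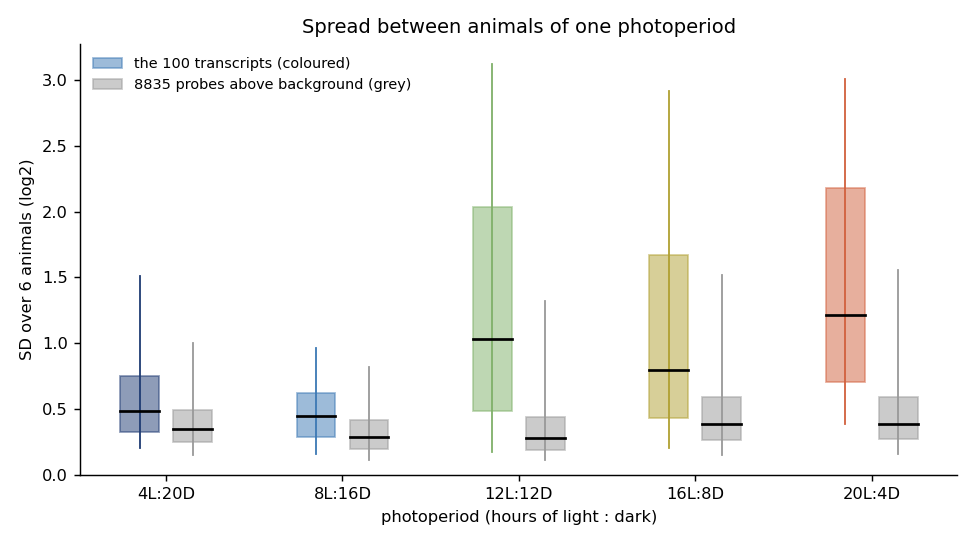
SD of the log2 level over the 6 animals of each photoperiod, for the 100 transcripts (coloured) and for the 8835 probes above background on all arrays (grey). Boxes hold the 25th to the 75th percentile of probes, black lines are medians and whiskers run from the 5th to the 95th percentile. The median SD of the 100 transcripts was 0.49 and 0.45 under the shortest days and 1.22 under 20L:4D.

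The members nearest to DM03120P2 were mostly transcripts with large swings. After DM04079P2 came DM04250P2, DM11833P3, DM14845P1, DM07008P1, DM08102P3, DM13180P1, DM06773P1, DM06726P2 and DM12100P1, with r between 0.873 and 0.785, none of them annotated. Their ranges over the 30 animals differed widely, with DM13180P1 spanning 214-fold and DM12100P1 only 3.30-fold. DM13180P1 had levels from 4.85 to 5.70 under 4L:20D and from 4.05 to 5.62 under 8L:16D. Under 12L:12D its lowest level was 0.21 (animal 1A) and the other 5 animals lay between 4.19 and 5.88. Under 20L:4D its lowest was -1.86 (animal 1B) and the highest 5.48. DM13180P1 was thus bright in nearly every animal and dim in a few. DM07008P1 differed more between photoperiods, with medians of 2.83 under 4L:20D, 3.74 under 8L:16D, 1.57 under 12L:12D, 0.37 under 16L:8D and 1.20 under 20L:4D.

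Among the members, SDs between animals ran from 0.20 to 2.79 log2 units with a median of 0.82, against a median of 0.34 for the 8835 bright probes. An SD over 1 was found for 43 members, and for 6.98% of bright probes. The signal of 45 members spanned more than 16-fold over the animals, while 22 members spanned less than 4-fold. The widest was DM12182P2, not annotated, whose highest signal was 756 times its lowest. Its lowest, median and highest levels were 1.49, 4.47 and 6.87 under 4L:20D and 0.75, 2.14 and 4.28 under 8L:16D. Under 12L:12D they were -1.98, 4.89 and 6.63, under 16L:8D -2.69, 3.76 and 5.30, and under 20L:4D -2.36, 3.54 and 6.53. In each of the longer photoperiods DM12182P2 was thus dim in 1 or 2 animals and bright in others, and the photoperiods overlapped throughout. DM09211P1, DM06797P1, DM09235P2, DM06830P2, DM07027P3, DM07845P1, DM06838P1, DM08007P1 and DM07453P4 completed the 10 widest, with SDs of 2.59 to 2.07.

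Some members ran so close together that they traced the same animals almost point for point. Of the 4950 pairs, 31 had an r above 0.95, and these pairs joined 32 members into 11 groups, the closest pair being DM07453P4 and DM09208P1 (r = 0.992). Whether such probes target the same transcript, related copies or different genes could not be read from the sources used here. The largest group held 9 unannotated probes, DM08785P2, DM08007P1, DM11790P4, DM06830P2, DM09211P1, DM07453P4, DM08826P1, DM09208P1 and DM06821P2. In animal 1A of 12L:12D all 9 lay below their own medians, by differences of -7.63 to -4.45 log2 units, as they did in animals 3A of 16L:8D (-7.58 to -3.32) and 1B of 20L:4D (-7.96 to -4.36). All 9 were also low in animal 2A of 12L:12D (-5.97 to -1.87) and in animals 1A and 2B of 16L:8D (-6.04 to -1.67 and -6.07 to -1.74). DM09211P1, for example, lay between 3.12 and 4.80 under 4L:20D and between 3.06 and 4.86 under 8L:16D, while under 16L:8D its levels ran from -3.51 to 4.19.

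A second group of 3 probes was low in a partly different set of animals. It joined DM12182P2 and DM10589P1, both unannotated, to DM07027P3, annotated as chymase, a serine protease of the family that includes chymotrypsin. These 3 were low in animals 1A and 2A of 12L:12D, 3A of 16L:8D and 1A and 1B of 20L:4D, as the group of 9 was, except that not all 9 were low in animal 1A of 20L:4D. Unlike the group of 9, the 3 were also all more than 1 log2 unit low in some animals on short days, namely 1B and 3A of 8L:16D (-3.14 to -2.03 and -2.66 to -1.29) and 1A of 4L:20D (-2.40 to -1.11), and in animal 3B of 20L:4D (-2.58 to -1.14). In animals 1A and 2B of 16L:8D, however, the 3 lay 1.41 to 2.26 and 0.97 to 2.67 log2 units above their medians, where all 9 of the other group were below theirs. The transcripts varying with DM03120P2 were thus not a single pattern copied 100 times.

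**Figure D4:**
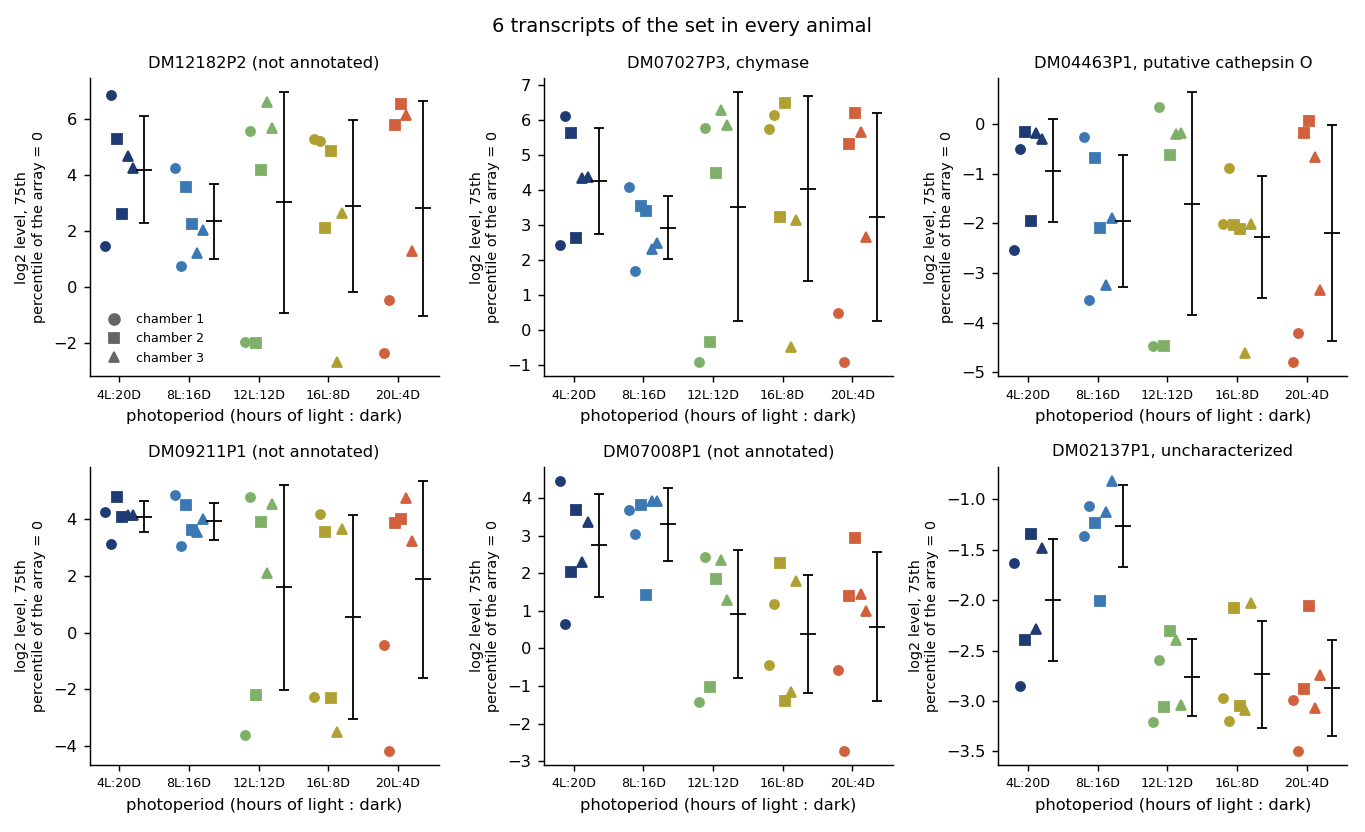
Log2 levels of 6 transcripts of the set in every animal, with the array's 75th percentile at 0, by photoperiod. Points are animals, shapes are chambers and bars are the mean and SD of 6 animals. DM09211P1 lay between 3.06 and 4.86 in all animals of 4L:20D and 8L:16D and as low as -4.19 under 20L:4D, while chymase was bright in most animals of every photoperiod.

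The 3 members with a named protein were a pair of proteases and a ribosome export factor. Chymase (DM07027P3, r = 0.629) had levels of 2.42, 4.36 and 6.13 under 4L:20D, 1.68, 2.95 and 4.08 under 8L:16D, -0.93, 5.13 and 6.30 under 12L:12D, -0.47, 4.49 and 6.48 under 16L:8D and -0.91, 3.99 and 6.21 under 20L:4D, in each case lowest, median and highest. Its mean differed from that of 16L:8D by 0.21 log2 units under 4L:20D and by -1.13 under 8L:16D (SE 1.33 each, limma adjusted p = 0.973 and 0.716). The photoperiods overlapped over most of their range. Only animals 1A and 2A of 12L:12D, 3A of 16L:8D and 1A and 1B of 20L:4D lay below a level of 1, and every other animal was at 1.68 or higher.

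Putative cathepsin O (DM04463P1, r = 0.634), a cysteine protease of lysosomes, had lowest, median and highest levels of -2.53, -0.40 and -0.17 under 4L:20D, -3.55, -1.99 and -0.26 under 8L:16D and -4.48, -0.41 and 0.34 under 12L:12D. Under 16L:8D they were -4.61, -2.03 and -0.88, and under 20L:4D -4.80, -2.004 and 0.06. Its lowest values again lay on the longer days, and the photoperiods overlapped. NMD3 (DM04354P3, r = 0.631), an adaptor that carries the large ribosomal subunit out of the nucleus, moved far less, with all 30 levels between -2.49 and -1.01, a 2.78-fold range. The remaining annotated members were uncharacterized proteins, DM05657P2, DM08414P4 and DM02137P1, and DM13184P1, with no significant match. Apart from DM07027P3 and DM02137P1, these annotated members were named after their values had been seen.

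The rule had removed the photoperiod means, so the differences between photoperiods did not choose the members, and no member passed the test across all probes. The spread within photoperiods, which sets the standard errors and p-values, was part of what the rule used. The shares of members called are therefore not independent of the rule and are given beside those of all probes as a description. In limma's moderated F-test for photoperiod, 0 of the 100 members had an adjusted p of 0.05 or less, where 0.0698% of all probes tested did. At an unadjusted p under 0.01 there were 4 members (2.23% of all probes), and at an unadjusted p under 0.05 there were 15 (11.3% of all probes). The shares of members, 4 and 15 in 100, stood near those of all probes. Nor did any member pass against 16L:8D under 4L:20D (0.0558% of all probes), 8L:16D (0.0139%), 12L:12D (0%) or 20L:4D (0%). The criteria of the study's methods were an unadjusted p under 0.01 for photoperiod and under 0.05 for the contrast, with a difference of at least 1.5-fold. Under these, 4 members were called under 4L:20D (0.579% of all probes) and 4 under 8L:16D (1.03%). None were called under 12L:12D (0.335%) or 20L:4D (0.46%). These calls come from the fit used here, and their numbers over the array differ from those the paper reports for this trial. The paper also lists the DM03120 transcript among those responding to photoperiod. In the limma F-test here DM03120P2 had an unadjusted p of 0.063.

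Although single members did not pass, the changes leaned to higher levels on short days. Relative to 16L:8D, 95 of 100 members had a higher mean under 4L:20D (44.2% of all probes), with a median change of 0.64 log2 units (all probes, -0.05). Under 8L:16D 81 had a higher mean (51.9% of all probes), with a median of 0.52 (all probes, 0.02). Under 12L:12D and 20L:4D, 76 and 66 members had higher means (41.8 and 48.2% of all probes), both with a median of 0.16 (all probes, -0.06 and -0.01). The members' wider spread between animals enlarges differences between means, so their median changes are not directly comparable with those of all probes. At an unadjusted p under 0.05, 27 members were higher and 0 lower under 4L:20D, where 2.71% of all probes were higher and 6.14% lower. Under 8L:16D 25 members were higher and 0 lower (all probes, 6.65% higher and 7.5% lower), under 12L:12D 1 was higher and 0 lower (0.969% and 4.94%), and under 20L:4D 0 were higher and 0 lower (1.51% and 3.77%). All 4 contrasts share the 6 control animals, and members chosen for varying together are not separate observations of a shift.

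The counts depended on a few animals. Animal 3A of 16L:8D had the array with the smallest share of probes above background and was among the 7 low animals. Without it, 8 members were higher under 4L:20D (all probes, 1.81%) and 11 under 8L:16D (4.85%) at an unadjusted p under 0.05. The median changes were then 0.55 and 0.42. For 4L:20D the count without a whole chamber fell to 10 without its own replicate 2 (all probes, 1.99%). It was 11 without its own replicate 3 (1.93%) and 15 without replicate 3 of 16L:8D (2.39%). For 8L:16D the counts were 15, 16 and 16 without its own replicate 1, its own replicate 3 and replicate 3 of 16L:8D (all probes, 6.55, 4 and 6.91%). Slide took up a median of 37.1% of the members' variance after removal of the photoperiod means (29.2% over bright probes). Blocking on the slide gave median changes of 1.09 under 4L:20D, 0.65 under 8L:16D, 0.21 under 12L:12D and 0.48 under 20L:4D. At an unadjusted p under 0.05, 46, 11, 0 and 4 members were then higher (all probes, 6.25, 2.52, 3.13 and 4.68%). Within the slides that held both photoperiods, the median member was higher by 1.58 and 0.49 log2 units under 4L:20D (2 slides) and by 0.43 under 8L:16D (1 slide). It was also higher by 0.05 and 0.77 under 12L:12D (2 slides) and by 0.91 under 20L:4D (1 slide). These within-slide values rest on 1 or 2 arrays a side. The control of the slide with 1.58 and 0.77 was the low animal 3A of 16L:8D alone, and the 20L:4D array was animal 2B, in which the median member stood highest of all 30 animals. For 20L:4D the direction itself rested on single chambers. Without its replicate 1 the median change was 0.78, with 31 members higher at an unadjusted p under 0.05 (all probes, 4.18%). Without its replicate 2 the median change was -0.32, with none higher and 2 lower (all probes, 1.61% higher and 3.04% lower). For 12L:12D the median change was 0.40, 0.26 and -0.06 without its replicates 1, 2 and 3, against 0.16 with all arrays. Without animal 3A of 16L:8D the median change under 20L:4D was also below 0, at -0.06. The parts of slide and array quality in these changes were not tested further.

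**Figure D5:**
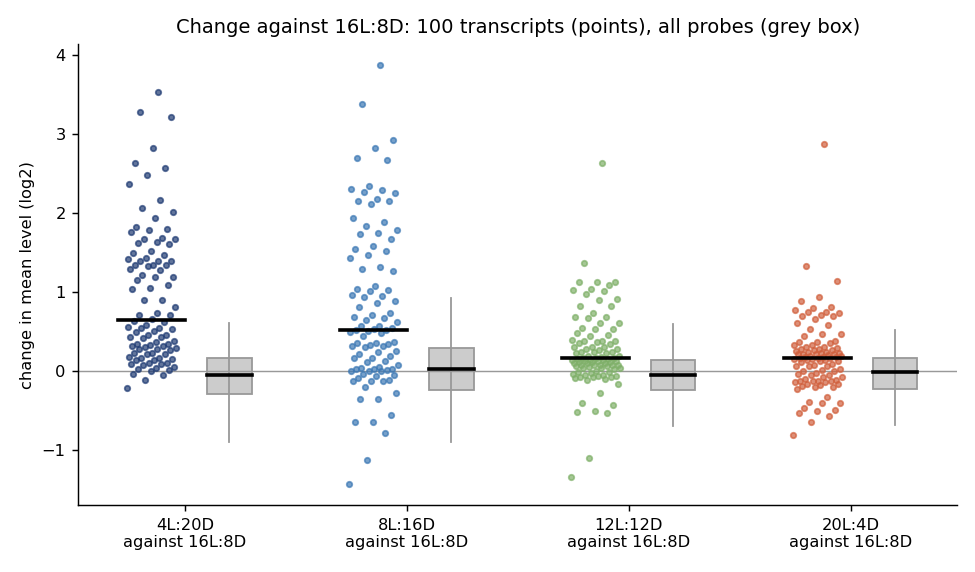
Change in mean log2 level against 16L:8D for each of the 100 transcripts (points, with a black line at their median) and for all probes (grey box from the 25th to the 75th percentile, whiskers from the 5th to the 95th, black line at the median). The medians of the 100 transcripts were 0.64 under 4L:20D, 0.52 under 8L:16D and 0.16 under both 12L:12D and 20L:4D.

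A contrast linear in hours of light also leaned to higher levels on short days, but depended on single chambers. The level of 89 of the 100 members was lower with more light, while 52.7% of all probes were higher. No member passed the adjusted threshold (0.0837% of all probes did). At an unadjusted p under 0.05, 37 members were lower and 0 higher (all probes, 6.42% lower and 7.95% higher). The count of members lower was 9 without replicate 1 of 20L:4D (all probes, 3.96%), the chamber with 2 of the low animals. In that setting 2 members were higher at an unadjusted p under 0.05 (all probes, 3.66%). At any p, 61 were then lower and 39 higher, with a median slope of -0.012 log2 units per hour. The count of members lower was 62 without replicate 2 of 20L:4D (all probes, 7.51%), the chamber with the highest.

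DM02137P1, an uncharacterized protein, had the smallest photoperiod p-value of the set. Its lowest, median and highest levels were -2.86, -1.96 and -1.34 under 4L:20D, -2.01, -1.18 and -0.81 under 8L:16D and -3.21, -2.82 and -2.31 under 12L:12D. Under 16L:8D they were -3.20, -3.01 and -2.03, and under 20L:4D -3.50, -2.94 and -2.06. All 6 animals of 8L:16D were above all 6 of 16L:8D, whereas 4L:20D overlapped the control. The mean under 8L:16D was 1.47 ± 0.30 log2 units higher than under 16L:8D (SE, n = 6 each), a 2.77-fold difference, with an adjusted p of 0.148 in limma and 0.0695 for photoperiod as a whole. Fitted as a line over the hours of light, its level fell by 0.080 log2 units per hour (limma adjusted p = 0.0653). Its SD between animals, 0.45, was below the median of the members (0.82) but above that of the bright probes (0.34).

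The other 4 members with the smallest photoperiod p-values were DM08102P3, DM07008P1, DM08460P1 and DM11524P2, with unadjusted p of 0.0057, 0.0086, 0.0088 and 0.0149 and adjusted p of 0.421 each in limma. Relative to 16L:8D under 8L:16D they were higher by 2.26 ± 0.64, 2.92 ± 0.90, 2.67 ± 0.76 and 1.51 ± 0.40 log2 units (SE, n = 6 each). In DM08460P1 the lowest animal of 8L:16D, at 0.87, stood above the highest of 16L:8D, at 0.57. In the other 3 the photoperiods overlapped. Of all members, the 6 animals of 8L:16D lay above the 6 of 16L:8D in 3 members, DM08460P1, DM02137P1 and DM06821P2 (0.432% of all probes), and those of 4L:20D did so in 5 members, DM04250P2, DM06773P1, DM12120P1, DM13184P1 and DM06189P3 (0.112%). DM06821P2, DM12120P1 and DM06189P3 are named here after their values had been seen.

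None of the other probes found by the cuticle, chitin and moult keywords was in the set. The list held 11 besides DM03120P2, of which 7 were bright on all arrays and so could have been members. It could draw only on the small annotated share of the array. So few eligible probes would rarely include a member, and this absence says little about the set. The r of the 11 probes with DM03120P2 had a median of -0.269, and 9 of the 11 were below 0. Those bright on all arrays had r from -0.486 to 0.375, while all those not bright on all arrays lay below the median. The latter included DM00246P1, a tyrosine 3-monooxygenase (r = -0.337, above background on 29 arrays). They also included DM07224P1, annotated as a brain chitinase (r = -0.319, above background on 19 arrays). DM12885P2, a putative cuticle protein, was the closest (r = 0.375), while another putative cuticle protein, DM08522P1, ran oppositely (r = -0.486). A pair of probes annotated as chitin deacetylase 3 precursors, DM01941P4 and DM03975P4, had an r of -0.339 and -0.355 with the chitin deacetylase of DM03120P2, but were above background on only 17 and 26 of the 30 arrays, so these r include levels near background. For photoperiod, 0 of the 11 passed the adjusted threshold in limma and 2, DM12429P1 and DM13721P2, a chitinase domain protein and a chitinase, had an unadjusted p under 0.05.

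Other lists by keyword likewise contributed no member. None of the probes of the yolk and egg (8 probes), gut enzyme (10), blood (1), muscle (1), eye (3) and germ line and dividing cell (11) lists was among the 100. Of these lists, in that order, only 4, 4, 0, 1, 3 and 7 probes were bright on all arrays and could have been members. So few eligible probes would rarely include a member, and their absence says little about the set. The lists for the moulting hormone pathway and for food organisms found no annotated probe. Because DM07027P3 was annotated by the name chymase, it fell outside the gut keywords.

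Vitellogenin varied weakly against the set. DM00375P2 had an r of -0.403 with DM03120P2, and 98 of the 100 members had an r below 0 with it, from -0.718 (DM11143P1) to 0.159 and with a median of -0.296. The members were chosen for following DM03120P2, so mostly negative r with DM00375P2 follow in part from the rule. Vitellogenin levels of DM00375P2 were 0.61, 1.27 and 1.501 under 4L:20D (lowest, median and highest) and 1.46, 2.26 and 2.66 under 8L:16D, against 1.60, 1.87 and 2.06 under 16L:8D. Its mean change was -0.75 under 4L:20D and 0.24 under 8L:16D (SE 0.22 each), and neither passed across all probes (limma adjusted p = 0.56 and 0.616). Among named probes varying most strongly against DM03120P2 were Spondin-1, an extracellular matrix protein (DM06546P3, r = -0.755), a putative cytosolic purine 5'-nucleotidase (DM00814P4, r = -0.739), a mitochondrial acyl-CoA synthetase of fatty acid activation (DM04198P3, r = -0.713) and a patatin phospholipase domain protein (DM07337P1, r = -0.657), all chosen after their values were seen.

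Correlations of the set with measures of the arrays were modest and were not tested. With photoperiod means removed, the median level of the members had an r of 0.419 with the 75th percentile of the array and of 0.236 with the percentage of probes above background, over 30 animals that share slides and chambers. Slide took up 46.7% of the variance of that median level, and animals of the same chamber had a median correlation of 0.191 in the members against 0.0228 over bright probes. The part of each in the members' covariation was not tested.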

How the data were processed

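Total RNA of single whole animals (80 ng) was labelled with 1 dye and hybridised by the authors, and Agilent Feature Extraction (version 9.5.1 per the submitters' processing notes, 10.7.3.1 per the file headers) gave the deposited intensity of each spot, gProcessedSignal, already background corrected. The deposited log2 values of the series table, which the authors scaled to the 75th percentile and then to medians, served as an alternative. Here log2 intensity minus each array's 75th percentile over non-control spots was used, with non-uniformity outlier spots (222) left out and duplicate spots averaged. The study's first trial, 30 arrays on 9 slides and 2 scan days, was analysed.

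The test was limma 3.58.1 (R 4.3.3): photoperiod, letter and their interaction, with lmFit and eBayes on every probe and Benjamini-Hochberg adjustment over all probes, tested on simulated data. Calls used an adjusted p of 0.05, or the unadjusted 0.01 of the methods. Pseudocounts were not used. The number of arrays limits the precision, and p-values measure the spread between these animals, of which pairs shared a chamber.

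Named transcripts were DM03120P2, the 10 members with the highest r, the 10 with the largest SD, members with a cuticle keyword (0 found), the 5 with the smallest photoperiod p and the 2 on each side of the limit. Members and lists were chosen with earlier results of these data known. No target name matched the reference gene table. The files held no mean signal, so normexp used the median signal. Alternatives covered background correction, scaling, dim-probe filters, outlier spots, models, moderation, slide, and each chamber left out. The study's second trial was not analysed here.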

Additional observations from a re-analysis of the deposited data

Results flagged for a closer look

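In 170 groups of 6 animals examined (the median level of the members, and each named or annotated transcript, in each photoperiod), a single animal stood apart from the other 5 in 15 groups. Chance gives about 1 in 20 separate groups. Members chosen for varying together are not separate observations, so the 15 cannot be judged against that rate. Nearly all of the 15 values standing apart were low. They came from few animals, with 7 from animal 2B of 8L:16D and 3 each from 3A of 16L:8D and 1B of 20L:4D. Animals 1A of 12L:12D and 3B of 4L:20D gave 1 each. Values are log2 levels, and for each the other 5 animals of the photoperiod lay closer together than the gap to the animal named.

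Animal 2B of 8L:16D accounted for 7 of the 15. Its levels were -1.74 for DM04250P2, 0.74 for DM11833P3 and 1.42 for DM07008P1, where the other 5 animals were at or above -0.26, 2.47 and 3.04. It was likewise low in DM08102P3 (3.55, others from 5.03), DM06726P2 (6.21, others from 7.26), DM12100P1 (-3.04, others from -2.43) and DM11524P2 (0.57, others from 2.06). This animal had the lowest level of DM03120P2 in its photoperiod, -0.90. The members were chosen for following DM03120P2 over these same animals, so their being low with it follows in part from the rule. The array of this animal had the lowest 75th percentile of any, 359, and the part of the array's brightness in these levels was not tested.

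Animals among the 7 described above as low gave 7 more. DM13180P1 was at 0.21 in animal 1A of 12L:12D (others from 4.19) and at -1.86 in animal 1B of 20L:4D (others from 3.51). In animal 3A of 16L:8D, DM07845P1 was at -2.51 (others from 3.44), DM08007P1 at 0.51 (others from 5.64) and DM04463P1, putative cathepsin O, at -4.61 (others from -2.12). In animal 1B of 20L:4D, DM08007P1 was at 0.34 (others from 4.92) and DM08473P2 at -4.23 (others from -2.10). The only high value was that of DM13184P1 in animal 3B of 4L:20D, 2.92, where the other 5 animals lay between 1.80 and 2.12.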

How the results depend on the processing

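Counts of members past an adjusted p of 0.05 were computed under 31 alternatives, including each of the 15 chambers left out. For each photoperiod set against 16L:8D the count was 0 in all of them (range without a chamber 0 to 0). The photoperiod count, 0, was 1 with photoperiod alone, 1 with the replicate block and 1 with chamber as a random block, and 0 to 1 without a chamber. The count linear in hours of light, 0, was 1 with photoperiod alone, 1 with the replicate block, 1 with chamber as a random block and 1 with chamber means, and 0 to 1 without a chamber. In every case the member was DM02137P1, whose photoperiod adjusted p was then 0.0113, 0.0124 and 0.0132, and 0.0317 with the first chamber of 4L:20D left out. The count at an unadjusted p under 0.01, 4 with all arrays, was 2 without moderation and 1 to 12 without a chamber. With chambers 1 or 3 of 8L:16D left out it was 1, as it was with chamber 2 of 12L:12D or chamber 1 of 16L:8D left out. It was 7 when chamber 2 of 16L:8D was dropped, and 8 and 12 when chambers 1 and 2 of 20L:4D were. Leaving out single arrays, chosen after seeing the data, gave 1 without animal 3A of 16L:8D and 2 without animal 1A of 4L:20D. The cause of these changes was not tested. For the transcripts named by the rule or annotated, 6127 of 6138 values stayed on their side of the adjusted threshold, and the other 11, all of DM02137P1, came to pass it.

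Replicate numbers did not pair the samples: over 30 pairs of chambers with the same number, deviations correlated at -0.673 to 0.42 with a mean of -0.034 (0.017 for other numbers).

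Membership depended more on the processing. The rule also found 98 of the 100 members in the deposited log2 values, 87 with quantile normalisation, 69 with normexp and quantile normalisation, 61 with Spearman's rho, 67 with photoperiod means kept and 57 with slide means removed as well. Without a chamber it found 63 (without replicate 1 of 20L:4D) to 95. The median level of the members in each photoperiod moved by less than 1 SD under every scaling tried. All members were well above background on every array, so no level of a member was only a bound.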
